A study of Mus musculus with 8 samples.

Results

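The genes described here are 32 genes of cholesterol and fatty acid synthesis, picked by symbol from the 25834 genes of a hippocampal RNA-seq table. They fall into 8 genes of the mevalonate pathway, 11 genes that turn its product into cholesterol, 6 regulators and 7 genes of fatty acid synthesis. All 32 were in the table, and all 32 passed the filter on low counts that left 16251 genes for testing. Cells build cholesterol from acetyl-CoA through mevalonate and squalene, and close squalene into a ring that further enzymes trim to cholesterol. The brain makes nearly all of its own cholesterol, since lipoproteins of the blood do not cross the blood-brain barrier, and much of it lies in myelin, the lipid-rich sheath that oligodendrocytes wrap around axons. Both pathways are under the SREBP transcription factors, which move to the nucleus when sterols in the endoplasmic reticulum run low.

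Hippocampal RNA came from male mice, 4 of them controls and 4 SAP97-cKO, and each mouse gave 1 library. The comparison asks how transcript levels differ once SAP97, a synaptic scaffold protein encoded by Dlg1, is lost. SAP97-cKO mice were homozygous for a floxed Dlg1 allele and heterozygous for a Cre transgene under the Nestin promoter, which is active in the progenitors of neurons and of most glia, and the Cre line had a C57Bl/6 background. Controls were littermates that carried Cre alone, the floxed alleles alone or neither; which of these each control library was, and the age of the mice at RNA isolation, are not known from the sources used here.

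The libraries held between 37388177 and 37426572 counts, after the authors had resampled the reads to a common depth. Values below are CPM, counts relative to a library size that edgeR scaled by TMM, and fold changes are SAP97-cKO over control. Dlg1 stood at 110.4, 122, 107 and 125 CPM in control replicates 1 to 4. It stood at 62.9, 82.0, 57.3 and 53.7 CPM in SAP97-cKO replicates 1 to 4. Every SAP97-cKO library lay below every control library (log2 fold change -0.86, adjusted p = 0.143 from edgeR). These are counts over the whole gene. The paper reports a far larger fall in reads on a single exon of the gene. It also checked each animal for SAP97 protein by western blot before sequencing. When control replicate 2, SAP97-cKO replicate 3 or SAP97-cKO replicate 4 was left out, 0 genes of the table passed an FDR under 0.25 in edgeR, so Dlg1 did not either.

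No synthesis gene passed the study's threshold, an FDR under 0.25, in edgeR's quasi-likelihood test. The count was 0 of 32 lower, where 0.283% of all genes tested were called lower, and 0 of 32 higher, where 0.0123% were called higher. Limma-voom also called 0 of 32, beside 0.295% of all genes called lower and 0.0123% called higher. DESeq2 called 1 of 32, Fdps, as lower in SAP97-cKO hippocampi, at an FDR of 0.225, and it called far more genes of the table in both directions, 3.84% lower and 2.91% higher. At an unadjusted p under 0.05, edgeR gave 2 of 32 lower, Fdps and Sc5d, beside 7.01% of all genes tested. It gave 0 of 32 higher at that p, beside 4.73% of all genes. Both shares of the synthesis genes were thus at or under the shares of all genes. Without scaling, the split over all genes at that p went to 1683 lower and 409 higher, from 1139 lower and 768 higher, and that of the synthesis genes to 4 lower and 0 higher.

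The estimated differences of the 32 genes between genotypes were small. Fold changes ran from -0.34 for Fdps to 0.20 for Fasn on the log2 scale, with standard errors of 0.068 to 0.15. The 95% confidence interval lay within a 1.5-fold difference in either direction for 31 of 32 genes, and Fdps was the exception. It lay within a 1.3-fold difference for 22 of 32. The estimate was below 0 for 25 of 32 genes (78.1%), as it was for 52.8% of all genes tested, and the median was -0.08 beside -0.01 over all genes. Single control libraries bore on that median. Without control replicate 4 the estimate was below 0 for 20 of 32 genes and the median was -0.04, and without control replicate 1 it was below 0 for 28 of 32 and the median was -0.13. The 4 control and 4 SAP97-cKO values did not overlap for 2 of 32 genes, both lower in SAP97-cKO, beside 3.47% of all genes tested. No synthesis gene had all SAP97-cKO values above all control values (0 of 32), beside 2.78% of all genes.

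**Figure D1:**
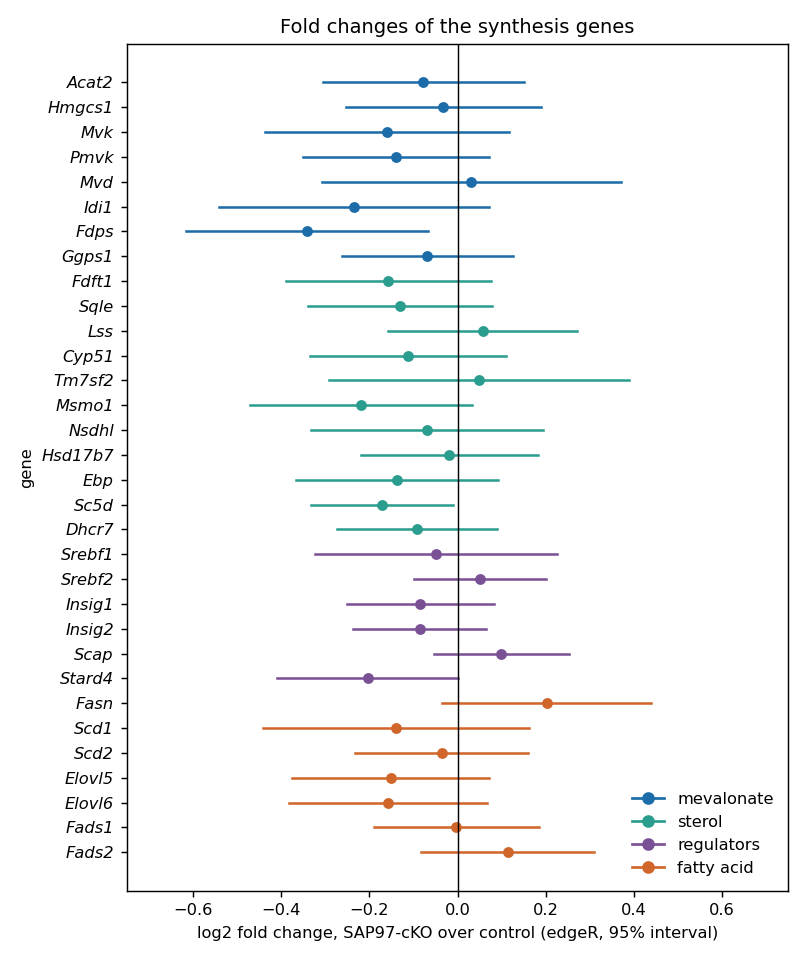
The horizontal axis is the log2 fold change of SAP97-cKO over control with its 95% confidence interval from edgeR (lines), and each of the 32 genes has a row, coloured by role. Estimates run from -0.34 for Fdps to 0.20 for Fasn, and the intervals of Fdps and Sc5d alone leave out 0.

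Levels can be set side by side per kb of annotated exon. Scd2 had by far the highest, at 341 CPM per kb over the 8 libraries. Hmgcs1 followed at 61.3 CPM per kb, Fads1 at 56.4 and Scd1 at 49.7. The synthesis genes with the lowest levels were Tm7sf2 at 2.40, Fdps at 2.55 and Lss at 2.90 CPM per kb, where the exon length counts every annotated transcript. Even these had at least 282 counts in each library, the smallest being that of Fdps.

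The mevalonate pathway joins acetyl-CoA units into farnesyl diphosphate. Of its 8 genes, 7 had estimates below 0, beside 52.8% of all genes tested, and 1 (Fdps) was lower at an unadjusted p under 0.05 in edgeR, beside 7.01%. The FDR was passed by 0 of the 8 in edgeR or limma-voom and by 1, Fdps itself, in DESeq2, beside 3.84% of all genes called lower there. Fdps (ENSMUSG00000059743), on the minus strand of chromosome 3 of GRCm38 from 89093588 to 89101959, encodes farnesyl diphosphate synthase, whose product feeds sterol synthesis and protein prenylation. Control replicates 1 to 4 had 11.2, 12.7, 10.7 and 13.5 CPM of Fdps. SAP97-cKO replicates 1 to 4 had 7.68, 9.90, 9.86 and 10.5 CPM. The groups did not overlap, but the highest SAP97-cKO library, replicate 4, lay just under the lowest control library, replicate 3, while SAP97-cKO replicate 1 stood well below the rest. The means were 12.02 ± 1.33 CPM (SD, n = 4) in controls and 9.48 ± 1.24 CPM (SD, n = 4) in SAP97-cKO hippocampi, the latter being 78.9% of the former. EdgeR put this at -0.34 on the log2 scale (unadjusted p = 0.0195, adjusted p = 0.368, standard error 0.12). An exact two-sided permutation test over the 70 assignments of the libraries gave p = 0.0286, the smallest that 4 mice against 4 allow. The unadjusted p from edgeR was 0.0519 when control replicate 4 was left out (log2 fold change -0.28) and 0.0578 when SAP97-cKO replicate 1 was (log2 fold change -0.25). Over the 8 libraries left out in turn, the adjusted p ran from 0.241 to 0.695, the lowest without control replicate 1, where 10.2% of all genes passed the FDR.

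Fdps shares sequence with other genes. Of the 50-base stretches in its transcripts, 26.2% also occur in other genes on the same strand. The largest share, 23.4%, is with Gm43738, an annotated gene that overlaps Fdps, and 12.1% is with Gm3571, a processed pseudogene. How the authors' counting divided such reads is not known, so the level of Fdps is uncertain to that extent.

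Hmgcs1 (ENSMUSG00000093930) makes HMG-CoA, the substrate for mevalonate, and had the second level per kb of all 32 genes. Control replicates 1 to 4 had 247, 309.7, 266 and 316 CPM of Hmgcs1. SAP97-cKO replicates 1 to 4 had 252, 307, 261 and 293 CPM. Both groups held replicates 1 and 3 at the low end and replicates 2 and 4 at the high end, so they overlapped almost fully. The means were 285 ± 33.8 CPM (SD, n = 4) and 278 ± 26.3 CPM (SD, n = 4), with a log2 fold change of -0.03 (adjusted p = 0.911 from edgeR). That estimate was 0.023 on the log2 scale without control replicate 4 and -0.09 without control replicate 1.

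The other 6 mevalonate genes had overlapping groups. Acat2, the thiolase that starts the pathway, had a log2 fold change of -0.08, which turned to 0.04 without control replicate 4. Mvk, which phosphorylates mevalonate, had -0.16, but -0.02 without control replicate 4. Pmvk, the next kinase, had -0.14, but -0.05 without that library. Mvd, which removes the carboxyl group to give isopentenyl diphosphate, had 0.03, or -0.02 without scaling and 0.22 without control replicate 4. Idi1, the isomerase that supplies dimethylallyl diphosphate, had -0.24, but -0.08 without control replicate 4. Ggps1, which branches off to geranylgeranyl diphosphate for protein prenylation, had -0.07, but -0.0098 without SAP97-cKO replicate 3. Their adjusted p-values from edgeR lay between 0.508 for Idi1 and 0.945 for Mvd. With another library than control replicate 4 left out, estimates fell to -0.31 for Idi1, -0.22 for Mvk and -0.20 for Pmvk. They fell to -0.12 for Ggps1 and -0.11 for Acat2. Acat2 shares 39.1% of its 50-base stretches with its near copy Acat3, and Idi1 shares 17.7% with the processed pseudogene Gm13502, so both counts carry the same uncertainty as that of Fdps. Acat3 itself was counted at 2.02 to 3.45 CPM, while Acat2 ran from 25.3 to 34.1 CPM.

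The 11 sterol genes act between farnesyl diphosphate and cholesterol. Of them, 9 had estimates below 0, beside 52.8% of all genes tested, 1 (Sc5d) was lower at an unadjusted p under 0.05 in edgeR, beside 7.01%, and 0 passed the FDR in edgeR, limma-voom or DESeq2. Sc5d (ENSMUSG00000032018), on the minus strand of chromosome 9 from 42251595 to 42264256, encodes the desaturase that turns lathosterol into the direct precursor of cholesterol. Its values were 55.7, 57.9, 58.0 and 67.6 CPM in control replicates 1 to 4. They were 54.4, 52.8, 50.9 and 54.4 CPM in SAP97-cKO replicates 1 to 4. The groups did not overlap, though control replicate 1 was only just above SAP97-cKO replicates 1 and 4, and control replicate 4 stood apart from the other controls on the high side. The means were 59.8 ± 5.34 CPM (SD, n = 4) and 53.1 ± 1.64 CPM (SD, n = 4), the latter being 88.8% of the former. EdgeR put this at -0.17 on the log2 scale (unadjusted p = 0.0387, adjusted p = 0.408, standard error 0.072; exact two-sided permutation p = 0.0286, the smallest possible). Without control replicate 4 it was -0.11, with an unadjusted p of 0.0667 from edgeR. The unadjusted p was also above 0.05 in edgeR when any other library but control replicate 1 was left out, reaching 0.126 without SAP97-cKO replicate 3. Over the 8 libraries left out in turn the adjusted p ran from 0.248, without control replicate 1, to 0.714.

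Sqle (ENSMUSG00000022351) encodes squalene epoxidase, a rate-limiting step of sterol synthesis. Control replicates 1 to 4 had 61.9, 74.3, 65.3 and 81.4 CPM of Sqle. SAP97-cKO replicates 1 to 4 had 59.0, 69.8, 63.4 and 66.2 CPM. The highest library was control replicate 4 and the lowest SAP97-cKO replicate 1, with the others intermixed. The means were 70.7 ± 8.83 CPM (SD, n = 4) and 64.6 ± 4.53 CPM (SD, n = 4), with a log2 fold change of -0.13 (adjusted p = 0.578 from edgeR). Without control replicate 4 the estimate was -0.06, and over the 8 libraries left out in turn it ran from -0.19 to -0.06.

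The other 9 sterol genes also had overlapping groups. Fdft1, squalene synthase, had a log2 fold change of -0.16, but -0.06 without control replicate 4. Lss, which closes the ring to lanosterol, had 0.06. Lss was 24.6 CPM in control replicate 1 and between 31.2 and 33.8 CPM in the other 7 libraries, and its estimate turned to -0.03 without that library. Cyp51, the lanosterol demethylase, had -0.11, and Tm7sf2, a sterol reductase that acts after it, had 0.05; without control replicate 4 these were 0.0067 and 0.23. Msmo1, which oxidises the methyl groups to be removed, had -0.22, with the smallest unadjusted p of these 9 genes (0.0814 from edgeR), but -0.08 without control replicate 4. Nsdhl and Hsd17b7, the dehydrogenase and the reductase of the same demethylation, had -0.07 and -0.02, and Nsdhl had 0.07 without control replicate 4. Hsd17b7 had 0.04 without control replicate 3 and 0.05 when SAP97-cKO replicate 3 was left out. Ebp, a sterol isomerase, had -0.14, but -0.07 without control replicate 4. Dhcr7, the reductase that yields cholesterol itself, had -0.09, but -0.03 without control replicate 4. With another library than control replicate 4 left out, estimates fell to -0.29 for Msmo1, -0.22 for Fdft1 and -0.20 for Ebp. They fell to -0.16 for Cyp51, -0.14 for Dhcr7 and -0.13 for Nsdhl. The adjusted p-values of these 9 genes ran from 0.461 for Msmo1 to 0.945 for Hsd17b7 in edgeR. Fdft1 overlaps Ctsb on the opposite strand over 17.2% of its 50-base stretches, Tm7sf2 shares 9.87% of them with its neighbour Vps51, and use of strand in the counting is not known.

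Most of the 19 mevalonate and sterol genes had the same library at the top, while the lowest library varied between them. Control replicate 4 had the highest value of all 8 libraries for 17 of the 19 genes (89.5%), and it had the highest value for 22.9% of all genes tested. The exceptions were Ggps1, highest in control replicate 1, and Hsd17b7, highest in control replicate 3. Mvk, for example, had 15.9, 16.7, 16.7 and 23.3 CPM in control replicates 1 to 4 and 14.8 to 17.2 CPM in SAP97-cKO hippocampi. Tm7sf2 had 9.10, 9.46, 9.01 and 14.0 CPM in the controls and 9.94 to 12.3 CPM in SAP97-cKO hippocampi. Mvk and Tm7sf2 were picked as examples after their values had been seen, and in both genes control replicate 4 lay above all 7 other libraries. The lowest control was replicate 1 for 10, replicate 3 for 5, replicate 2 for 3 and replicate 4 for 1 of the 19 genes. Summed over the 19 genes, the control libraries held 869, 978, 911 and 1133 CPM. The SAP97-cKO libraries held 859, 968, 865 and 941 CPM. Control replicates 1 to 3 thus held 869 to 978 CPM and the SAP97-cKO libraries 859 to 968 CPM. Control replicate 4 was set apart here after its values were seen. Hmgcs1 was the largest part of each sum, so the sums say little about the other genes. Without control replicate 4, the edgeR estimate was still below 0 for 20 of the 32 synthesis genes. Within the SAP97-cKO group, replicate 2 had the highest value for 12 of the 19 genes (63.2%), beside 29.5% of all genes tested. The lowest value of that group was in replicate 1 for 8 and in replicate 3 for 11 of the 19 genes, beside 29.7% and 16.3% of all genes. Without control replicate 4, edgeR gave 1 of 32 synthesis genes lower at an unadjusted p under 0.05, beside 7.20% of all genes in that setting, and 2 higher, beside 4.73%, in place of 2 and 0. These were Elovl6 below, and Mvd and Fads2 above, and each had an adjusted p over 0.25 from edgeR.

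**Figure D2:**
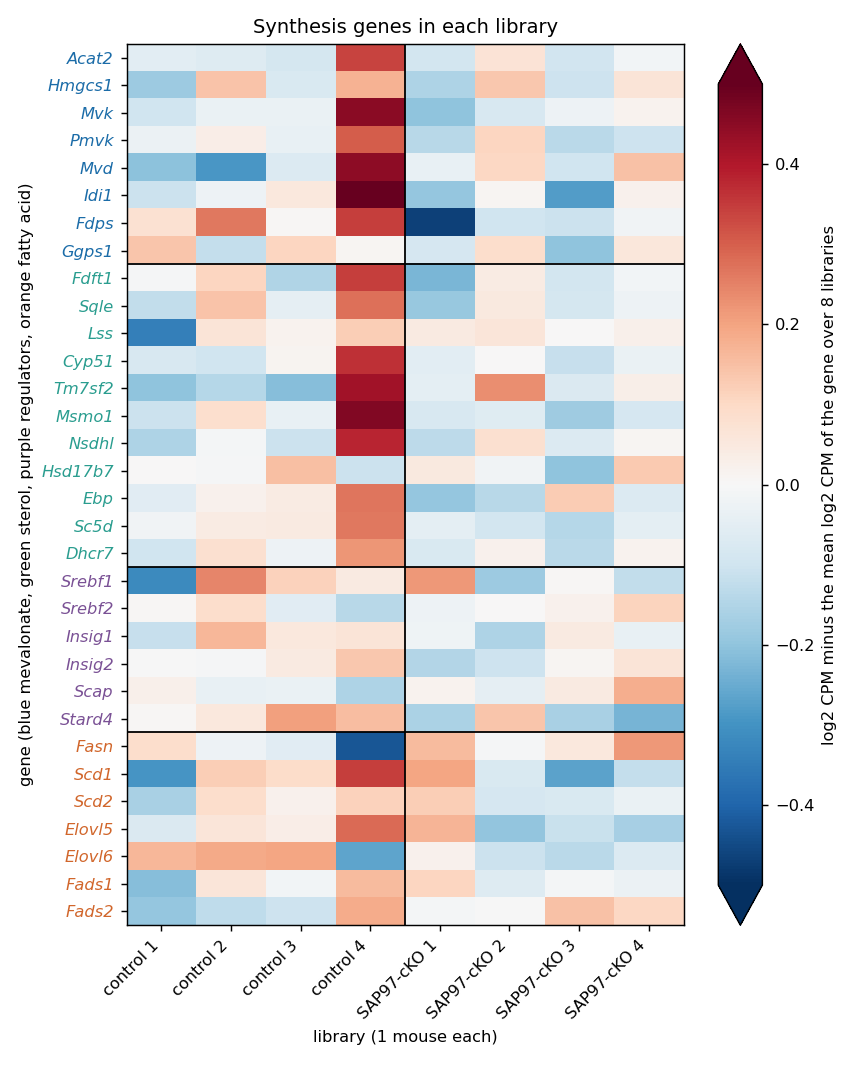
Rows are the 32 genes in 4 blocks by role, columns are the 8 libraries, and colour is the log2 CPM of a gene minus its mean over the libraries, from blue (below the mean) to red (above). Control replicate 4 holds the highest value for 17 of the 19 mevalonate and sterol genes in the upper 2 blocks, and the lowest for Fasn and Elovl6.

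Control replicate 4 was also the highest control by summed oligodendrocyte and astrocyte markers and the lowest by those of choroid plexus and neurons, though not far from the next control for oligodendrocytes and neurons. It was also the lowest control by summed endothelial markers, at 255 CPM against 262 to 269. Single endothelial markers differed: it was the highest control for Itm2a, at 74.8 CPM against 56.6 to 65.4, and for Cldn5. For Flt1, Pecam1, Cdh5 and Slco1a4 it was the lowest control, and for Ly6c1 it lay between other controls. By summed markers of meningeal fibroblasts, control replicate 4 was again the lowest control, at 254 CPM against 272 to 465. The fibroblast sum followed Igf2, which had 77.3 CPM there against 100 to 295 CPM in the other controls. Dcn went the other way, at 82.1 CPM there against 31.7 to 68.6 CPM, and these markers were named after their values were seen. The 10 oligodendrocyte markers summed there to 9652 CPM, against 6035, 8966 and 8158 CPM in control replicates 1 to 3. The 10 astrocyte markers summed to 7281 CPM, against 6154 to 6417 CPM in the other controls. The 8 markers of choroid plexus epithelium summed to 172 CPM, against 1197, 6812 and 3800.5 CPM. The 10 neuron markers summed to 10470.1 CPM there, against 10511.5 to 11641 CPM in the other controls. Single neuron markers differed in this: control replicate 4 was the lowest control for Prox1, at 90.8 CPM against 131 to 141, and the highest for Stmn2, at 415 CPM against 385 to 391, and both were named after their values were seen. That library was also the lowest control for Rbfox3, Snap25, Syt1, Gad2 and Neurod6. For Slc17a7, Gad1 and Camk2a it lay between other controls. Whether any of these cell types had a part in the values of the mevalonate and sterol genes was not tested. In bulk tissue, fewer cells of a type and less RNA per cell cannot be told apart.

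Among the 6 regulators, 4 had estimates below 0, beside 52.8% of all genes tested, and 0 passed an unadjusted p under 0.05 in edgeR or an FDR under 0.25 in edgeR, limma-voom or DESeq2. Srebf2 (ENSMUSG00000022463) encodes SREBP2, which mainly turns on the sterol genes. Its values were 205, 216, 196 and 185 CPM in control replicates 1 to 4. They were 200.3, 204, 207 and 220.1 CPM in SAP97-cKO replicates 1 to 4. The groups overlapped, and control replicate 4, the highest library for most sterol genes, was the lowest for Srebf2. The means were 201 ± 13.3 CPM (SD, n = 4) and 208 ± 8.63 CPM (SD, n = 4), with a log2 fold change of 0.05 (adjusted p = 0.766 from edgeR, standard error 0.068). The estimate was 0.015 without control replicate 4 and 0.09 without control replicate 2.

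Srebf1 (ENSMUSG00000020538) encodes SREBP1, which mainly turns on genes of fatty acid synthesis. Control replicates 1 to 4 had 48.3, 71.3, 65.3 and 62.1 CPM of Srebf1. SAP97-cKO replicates 1 to 4 had 69.98, 53.2, 60.5 and 55.3 CPM. Control replicate 1 was the lowest library and control replicate 2 the highest, so the whole SAP97-cKO group lay inside the control range. The means were 61.8 ± 9.75 CPM (SD, n = 4) and 59.7 ± 7.49 CPM (SD, n = 4), with a log2 fold change of -0.05 (adjusted p = 0.890 from edgeR). The estimate of Srebf1 turned to 0.03 without control replicate 2 and was -0.15 without control replicate 1.

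Insig1 (ENSMUSG00000045294) encodes a protein that holds the SREBP precursors in the endoplasmic reticulum, and is itself a target of the SREBPs. Control replicates 1 to 4 had 42.8, 52.0, 48.0 and 48.5 CPM of Insig1. SAP97-cKO replicates 1 to 4 had 45.7, 41.7, 47.8 and 45.1 CPM. Control replicates 2 to 4 were above every SAP97-cKO library, and control replicate 1 lay among the SAP97-cKO libraries. The means were 47.8 ± 3.79 CPM (SD, n = 4) and 45.1 ± 2.54 CPM (SD, n = 4), with a log2 fold change of -0.08 (adjusted p = 0.650 from edgeR). The estimate was -0.04 without control replicate 2 and -0.13 without control replicate 1. Insig2, its paralog, had a log2 fold change of -0.09, or -0.05 without control replicate 4, with groups that overlapped. Scap, which escorts the SREBPs out of the endoplasmic reticulum, had 0.10, or 0.06 without SAP97-cKO replicate 4, with control replicate 4 lowest at 71.3 CPM and SAP97-cKO replicate 4 highest at 89.997 CPM. When 1 library was left out, estimates ran from -0.12 to -0.05 for Insig2 and from 0.06 to 0.13 for Scap. Stard4, a carrier that moves sterols between membranes and a target of SREBP2, had the smallest unadjusted p of the regulators. Its log2 fold change was -0.20 (standard error 0.092, unadjusted p = 0.0518, adjusted p = 0.426 from edgeR). SAP97-cKO replicate 2, at 30.0 CPM of Stard4, was inside the control range of 27.4 to 31.4 CPM, and the other 3 SAP97-cKO libraries lay below it at 23.2 to 24.4 CPM.

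Of the 7 fatty acid genes, 5 had estimates below 0, beside 52.8% of all genes tested, and 0 passed an unadjusted p under 0.05 in edgeR or the FDR in edgeR, limma-voom or DESeq2. Fasn (ENSMUSG00000025153), on the minus strand of chromosome 11 from 120805846 to 120824547, encodes fatty acid synthase, which builds palmitate, and had the largest estimate above 0 of all 32 genes. Control replicates 1 to 4 had 311, 288, 282 and 217 CPM of Fasn. SAP97-cKO replicates 1 to 4 had 327, 292, 304 and 340.2 CPM. Control replicate 4 was well below all other libraries, and the remaining controls overlapped the SAP97-cKO group. The means were 274 ± 40.1 CPM (SD, n = 4) and 316 ± 22.0 CPM (SD, n = 4). The log2 fold change was 0.20 (standard error 0.11, unadjusted p = 0.0878, adjusted p = 0.475 from edgeR), and without control replicate 4 it was 0.11. Over the 8 libraries left out in turn it ran from 0.11 to 0.27.

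Scd1 and Scd2 encode desaturases that turn saturated into monounsaturated fatty acids, and Scd2 is the main form of the brain. Scd2 (ENSMUSG00000025203) had 1662.4, 1976, 1887 and 2015 CPM in control replicates 1 to 4. It had 2025, 1754, 1763 and 1814 CPM in SAP97-cKO replicates 1 to 4. The lowest library was control replicate 1 and the highest SAP97-cKO replicate 1, so the groups overlapped from end to end. The means were 1885 ± 158 CPM (SD, n = 4) and 1839 ± 127 CPM (SD, n = 4), with a log2 fold change of -0.04 (adjusted p = 0.884 from edgeR, standard error 0.088). The estimate was -0.0020 without control replicate 4 and -0.09 without control replicate 1. Scd1 (ENSMUSG00000037071) had 196, 262, 256 and 305 CPM in control replicates 1 to 4. It had 275, 228, 199.7 and 221 CPM in SAP97-cKO replicates 1 to 4. Control replicate 1 was again the lowest, and SAP97-cKO replicate 1 the highest of its group. The means of Scd1 were 255 ± 45.1 CPM (SD, n = 4) and 231 ± 31.9 CPM (SD, n = 4), with a log2 fold change of -0.14 (adjusted p = 0.674 from edgeR). Its estimate was -0.04 without control replicate 4 and -0.25 without control replicate 1. The Scd genes are near copies, and 4.56% of the 50-base stretches of Scd1 and 3.97% of those of Scd2 occur in other genes on the same strand.

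Fads1 and Fads2 are neighbours on chromosome 19 and encode the desaturases that make long polyunsaturated fatty acids. Fads1 (ENSMUSG00000010663) had 234, 282, 268.5 and 302 CPM in control replicates 1 to 4. It had 291, 259, 269 and 266 CPM in SAP97-cKO replicates 1 to 4. The group means were almost equal, 272 ± 28.8 CPM (SD, n = 4) and 271 ± 14.0 CPM (SD, n = 4). The log2 fold change was -0.0026 (adjusted p = 0.993 from edgeR), and its sign changed with scaling and filter. Fads2 had a log2 fold change of 0.11, and 0.20 without control replicate 4. Elovl5, which lengthens polyunsaturated fatty acids, had -0.15, but -0.08 without that library. When 1 library was left out, estimates ran from -0.23 to -0.08 for Elovl5 and from 0.07 to 0.20 for Fads2. Elovl6, which lengthens palmitate to stearate, had -0.16, with 84.4, 85.8, 86.3 and 62.7 CPM in control replicates 1 to 4. In SAP97-cKO replicates 1 to 4 Elovl6 had 76.2, 69.7, 68.5 and 71.7 CPM, below control replicates 1 to 3 and above control replicate 4. Without that library its log2 fold change was -0.26 (unadjusted p = 0.000829, adjusted p = 0.261 from edgeR), and over all 8 libraries left out in turn the adjusted p ran from 0.261 to 0.773. Elovl6 was chosen for this account after its values were seen.

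**Figure D3:**
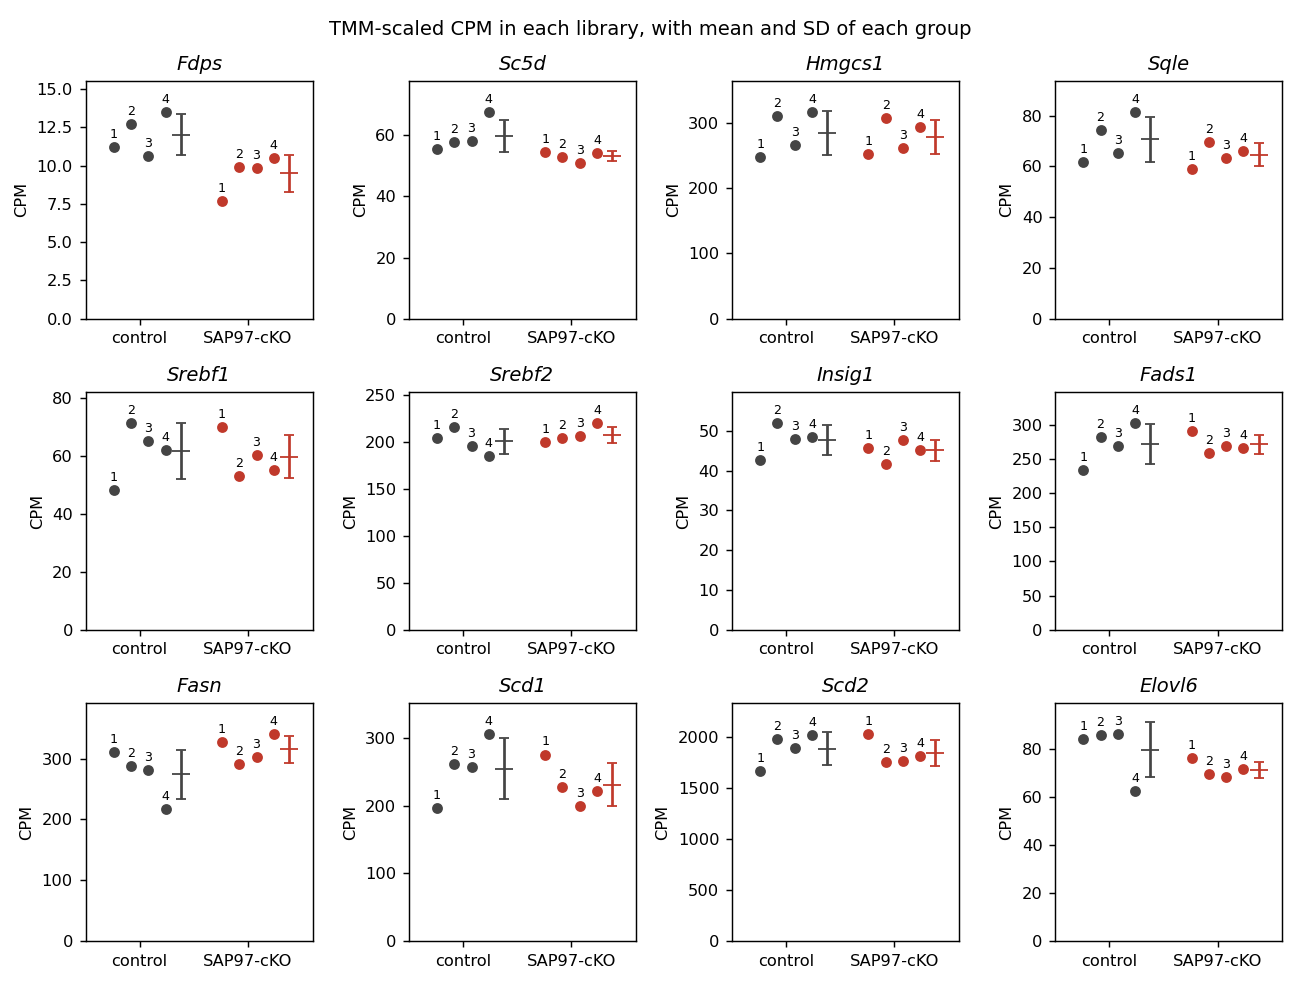
Each panel shows 1 gene, with its TMM-scaled CPM from 0 upwards on the vertical axis, a point for each library labelled by replicate number, and the mean with SD of the 4 libraries at the side. Fdps and Sc5d have no overlap between control and SAP97-cKO libraries, and control replicate 4 is the lowest library for Fasn and Elovl6.

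By summed CPM, the fatty acid genes put the control libraries in the same order as the mevalonate and sterol genes did, and the SAP97-cKO libraries in another. Scd2 made up most of the fatty acid sum, and Fasn and Elovl6 were lowest in control replicate 4, where the sum was the highest of the controls. Their summed CPM was 2659, 3077, 2963 and 3124 in control replicates 1 to 4. It was 3193, 2779.8, 2797 and 2899.5 in SAP97-cKO replicates 1 to 4. Control replicate 1 was lowest of its group for 5 of the 7 genes, beside 26.0% of all genes tested. Control replicate 4 was highest of its group for 5 of the 7, beside 32.6% of all genes, and highest of all 8 libraries for 4 of the 7, beside 22.9%. SAP97-cKO replicate 1 was highest of its group for 5 of the 7 fatty acid genes, beside 31.1% of all genes. The 10 oligodendrocyte markers, of which Mbp was the most abundant, summed to 6035, 8966, 8158 and 9652 CPM in control replicates 1 to 4. They summed to 8457, 5001, 5114 and 4672 CPM in SAP97-cKO replicates 1 to 4, so that control replicate 1 was likewise low in its group and SAP97-cKO replicate 1 high. Of these 10 markers, 10 had estimates below 0, beside 52.8% of all genes tested, and 7 were lower at an unadjusted p under 0.05 in edgeR, beside 7.01%. In edgeR and limma-voom 0 of them passed the FDR, while DESeq2 called 4 lower, beside 3.84% of all genes. None of the 10 was at 0 CPM in any library. Their part in the values of Scd1, Scd2 and the other fatty acid genes was not tested.

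Other cell types were set beside the synthesis genes in the same way. Of 10 meningeal fibroblast markers, with Igf2 the most abundant, 6 passed the FDR as lower in SAP97-cKO hippocampi in edgeR, beside 0.283% of all genes tested, 6 did in limma-voom, beside 0.295%, and 8 in DESeq2, beside 3.84%. In edgeR 0 of them passed when control replicate 2, SAP97-cKO replicate 3 or SAP97-cKO replicate 4 was left out, as was so for all genes. The 10 markers summed to 272, 465, 283 and 254 CPM in controls and 158, 254, 221 and 157 CPM in SAP97-cKO hippocampi. Of 8 choroid plexus epithelium markers, with Ttr the most abundant, 8 had estimates below 0, beside 52.8% of all genes tested, 0 had an unadjusted p under 0.05 in edgeR, and 0 passed the FDR in edgeR, limma-voom or DESeq2. Most of these calls changed in some of the other settings, which were other scalings, other filters and the block by replicate number. Over the edgeR, limma-voom and DESeq2 settings together, the lowest adjusted p ran from 0.0071 for Ttr and Folr1 to 0.140 for Otx2. Clic6, Kcnj13, Slc4a5 and Prlr lay between these, and Kl had 0.410. These settings include the block by replicate number, though the study's labels do not pair the mice. The 8 markers summed to 568, 2334, 1345 and 98.4 CPM in SAP97-cKO replicates 1 to 4, and from 172 to 6812 CPM within the control group. In both groups the sum was highest in replicate 2, followed by replicates 3, 1 and 4. For neurons, with Camk2a the most abundant of 10 markers, the sums were 10907 ± 547 CPM (SD, n = 4) in controls and 12177 ± 669 CPM (SD, n = 4) in SAP97-cKO hippocampi. The 10 astrocyte markers, led by Slc1a2, gave 6538 ± 506 and 6937 ± 651 CPM (SD, n = 4 each). The 7 endothelial markers, led by Itm2a, gave 263 ± 5.61 and 228 ± 48.4 CPM (SD, n = 4 each). At an unadjusted p under 0.05 in edgeR, 3 neuron and 2 astrocyte markers were higher, beside 4.73% of all genes tested, and 1 endothelial marker was lower, beside 7.01%. In these 3 lists, 0 markers passed the FDR in edgeR or limma-voom, while DESeq2 called 2 neuron markers and 1 astrocyte marker higher, beside 2.91% of all genes, and 1 endothelial marker lower, beside 3.84%. The part of these cell types in the fold changes of the 32 synthesis genes was not tested.

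Beyond the 32 genes, 22 further genes of sterol and fatty acid synthesis were examined, and 0 passed an FDR under 0.25 in edgeR or limma-voom, while DESeq2 called 1 lower, Fa2h, beside 3.84% of all genes. At an unadjusted p under 0.05 in edgeR, 4 were lower, beside 7.01% of all genes tested, and 0 higher, beside 4.73%. Fa2h, which makes the hydroxylated fatty acids of myelin, had 42.5, 63.2, 60.05 and 55.4 CPM in controls and 53.5, 35.7, 38.7 and 31.3 CPM in SAP97-cKO hippocampi. Fa2h had a log2 fold change of -0.47 (adjusted p = 0.368 from edgeR), and was low in control replicate 1 and high in SAP97-cKO replicate 1, as Scd1 and the oligodendrocyte markers were. Elovl7, an elongase of long fatty acids, had the largest fold of this list, -0.72 (adjusted p = 0.422 from edgeR), with 57.1 CPM in control replicate 2 and 13.7 to 38.8 CPM elsewhere. When 1 library was left out its log2 fold change ran from -0.92 to -0.36, the latter without control replicate 2. Lbr, a sterol reductase with the same activity as Tm7sf2, had -0.25, and Hsd17b12, a reductase of fatty acid elongation, had -0.18. Mbtps2, a protease that frees the SREBPs from the membrane, was the 1 gene of this list whose groups did not overlap, beside 2.78% of all genes on that side, and it was chosen after its values were seen. It had 35.2 to 39.7 CPM in controls and 40.2 to 43.4 CPM in SAP97-cKO hippocampi (log2 fold change 0.14, adjusted p = 0.428 from edgeR).

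Of 14 genes of sterol export, storage and turnover, 0 passed the FDR in edgeR or limma-voom, while DESeq2 called 2 lower, Nr1h3 and Lipa, beside 3.84% of all genes. At an unadjusted p under 0.05 in edgeR, 3 were lower, beside 7.01% of all genes tested, and 1 was higher, beside 4.73%. The higher one was Cyp46a1, the neuronal hydroxylase through which the brain disposes of cholesterol. Cyp46a1 had 116, 104, 98.2 and 122 CPM in control replicates 1 to 4. It had 109, 168, 131 and 137 CPM in SAP97-cKO replicates 1 to 4, and SAP97-cKO replicate 1 lay inside the control range (log2 fold change 0.31, adjusted p = 0.390 from edgeR). Without SAP97-cKO replicate 2 the log2 fold change of Cyp46a1 was 0.19. Nr1h3, a sterol-sensing nuclear receptor, had 2.93 to 4.03 CPM in controls and 2.13 to 2.45 CPM in SAP97-cKO hippocampi (log2 fold change -0.48, adjusted p = 0.347 from edgeR). Ch25h, a cholesterol hydroxylase, had the largest fold of this list, -0.68, but only 6 to 16 counts a library. Nr1h3 and Ch25h were the 2 of the 14 genes whose groups did not overlap, both lower in SAP97-cKO, beside 3.47% of all genes tested. Lipa and Npc2, which release and export lysosomal cholesterol, both had -0.26.

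The promoters of the synthesis genes were searched for short motifs. Genes highest in control replicate 4 were not compared with the others, so the search does not bear on that library. Windows of 250 bases before the transcription start, from RefSeq on GRCm38.p6, were used for 25 of the 32 genes, taking the first start listed. Some of these windows lie largely in exons annotated by GENCODE M21, with 250 bases in an exon for Idi1 and Tm7sf2, 243 for Fads2 and 214 for Msmo1. Windows of Fdps, Fdft1, Sqle, Stard4, Scd1, Scd2 and Fads1 were not used here. The search took both strands, and the reference is 11756 genes tested that have such a window. The CCAAT box, the letters CCAAT bound by NF-Y, was in 20 of 25 windows (80%), beside 35.8% of the genes tested. The GC box GGGCGG, bound by Sp1, was in 17 of 25 (68%), beside 57.5%. The core of the classical sterol regulatory element, CACNCCAC, was in 3 of 25 (Acat2, Hmgcs1 and Insig1; 12%), beside 5.27%. The longer form TCACNCCAC, which contains that core, was in 1 of 25 (Hmgcs1), beside 0.936%. The E-box CACGTG was in 4 of 25 (16%), beside 8.18%. Over all 27025 genes with a window the shares were 34.5% for CCAAT, 32.9% for GGGCGG, 5.16% for CACNCCAC, 1.04% for TCACNCCAC and 6.05% for CACGTG. A match is a description of the letters in a window and says nothing about binding.

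The windows of 4 genes are printed to show how these letters lie in a gene near the start of the pathway, the gene after the mevalonate kinases, the sterol gene with non-overlapping groups and the gene with the highest estimate. None of the 4 has a base in an exon annotated by GENCODE M21. They lie at chr13:119690101-119690350 on the plus strand (Hmgcs1), chr8:122443423-122443672 on the minus strand (Mvd), chr9:42264301-42264550 on the minus strand (Sc5d) and chr11:120824548-120824797 on the minus strand (Fasn), all on GRCm38.p6. Capitals mark CACNCCAC and CCAAT or its reverse complement ATTGG.
Hmgcs1: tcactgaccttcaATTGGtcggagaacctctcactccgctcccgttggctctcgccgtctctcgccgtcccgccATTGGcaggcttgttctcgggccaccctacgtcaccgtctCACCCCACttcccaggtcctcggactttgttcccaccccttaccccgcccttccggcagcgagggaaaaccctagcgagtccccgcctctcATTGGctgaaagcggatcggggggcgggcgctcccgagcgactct
Mvd: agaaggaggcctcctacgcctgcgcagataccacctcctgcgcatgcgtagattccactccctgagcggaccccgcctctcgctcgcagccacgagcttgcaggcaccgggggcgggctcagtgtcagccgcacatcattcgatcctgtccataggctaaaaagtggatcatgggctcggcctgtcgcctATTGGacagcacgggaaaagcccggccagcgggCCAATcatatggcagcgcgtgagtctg
Sc5d: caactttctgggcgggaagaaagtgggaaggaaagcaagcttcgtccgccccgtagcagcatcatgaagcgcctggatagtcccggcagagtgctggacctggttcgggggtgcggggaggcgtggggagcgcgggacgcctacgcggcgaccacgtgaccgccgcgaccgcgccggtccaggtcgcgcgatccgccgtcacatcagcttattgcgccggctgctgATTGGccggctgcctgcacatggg
Fasn: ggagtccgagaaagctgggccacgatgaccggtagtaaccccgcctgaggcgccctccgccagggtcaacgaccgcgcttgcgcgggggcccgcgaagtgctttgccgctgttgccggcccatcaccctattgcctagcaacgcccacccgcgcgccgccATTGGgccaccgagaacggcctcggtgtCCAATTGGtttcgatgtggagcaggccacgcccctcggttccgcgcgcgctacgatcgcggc
In Hmgcs1 the sterol element core begins 136 bases before the start, between CCAAT boxes at 176 and 45 bases. Mvd has CCAAT boxes at 60 and 27 bases before the start, and Sc5d has 1 at 24 bases. Fasn has 3, at 90, 62 and 59 bases, and the last of these overlaps its neighbour on the other strand.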

How the data were processed

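RNA was measured in the hippocampi of 4 control and 4 SAP97-cKO mice. The deposited table holds counts per gene, which the authors made by aligning reads with STAR 2.5.3a to mm10 (GRCm38.p5), removing ribosomal and mitochondrial reads, resampling to a common depth and counting on Ensembl genes with PORT. Its columns of fold change, p and adjusted p were not used. EdgeR 4.0.16 (R 4.3.3; filterByExpr with a minimum of 10 counts in a library and 15 in all, which removed 9583 of 25834 genes; TMM scaling; quasi-likelihood test by genotype; Benjamini-Hochberg over 16251 genes) gave fold changes, and its common biological coefficient of variation was 0.152. Alternatives were limma-voom (limma 3.58.1), DESeq2 1.42.0, other scalings and filters, a block by replicate number and leaving out each library in turn. Single genes were also tested with an exact two-sided permutation test, and the pipeline was tested on simulated data. Exon lengths and gene positions came from GENCODE M21 and promoter windows from RefSeq.

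The members and lists were chosen with earlier results of these data known. Values in each library are given for members at an unadjusted p under 0.05, for Srebf1, Srebf2, Insig1, Hmgcs1, Sqle, Fasn, Scd1 and Scd2, for the member with the largest fold in each direction, and for the 3 with the highest level per kb. In the other pathway lists, genes at an unadjusted p under 0.05 and the 2 with the largest fold are named. Other genes given by library were chosen after their values were seen.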

Additional observations from a re-analysis of the deposited data

Results flagged for a closer look

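In 5 of the 64 groups of 4 libraries, 1 library stood far from the other 3, and chance alone sets apart about 1 group in 20. Acat2 was 34.1 CPM in control replicate 4 and 25.4 to 26.1 CPM in the other controls. Mvk was 23.3 CPM in control replicate 4 and 15.9 to 16.7 CPM in the other controls. Tm7sf2 was 14.0 CPM in control replicate 4 and 9.01 to 9.46 CPM in the other controls. Elovl6 was lowest in control replicate 4, at 62.7 CPM, and 84.4 to 86.3 CPM in the other controls. Pmvk was 35.7 CPM in SAP97-cKO replicate 2 and 30.1 to 30.8 CPM in the other SAP97-cKO libraries.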

How the results depend on the processing

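The number of the 32 synthesis genes past an FDR under 0.25 was 0 in edgeR under each scaling and filter, in limma-voom and with a block by replicate number, and at an FDR under 0.05; it was 1 in DESeq2, and between 0 and 2 when 1 library was left out. The number lower at an unadjusted p under 0.05 was 2, beside 7.01% of all genes, but 4 without scaling, beside 10.4%. It was 1 without a filter, beside 5.32%, 1 with the block, beside 7.03%, and 3 in limma-voom, beside 6.58%. When 1 library was left out it was between 1 and 4, beside 3.72% to 9.34% of all genes. The number higher was 0, beside 4.73%, and between 0 and 2 when 1 library was left out, beside 3.33% to 7.26%. The median log2 fold change of the 32 genes stayed below 0 throughout, between -0.13 and -0.04. Fads1 turned positive in limma-voom (0.0024), DESeq2 (0.0025), edgeR with DESeq2 size factors (0.0025), without a filter (0.0058), with 10 counts required in every library (0.00073) and with the block (0.0021). Mvd was -0.017 without scaling. When 1 library was left out, log2 fold changes that turned ranged from -0.11 to 0.036 for Acat2, -0.16 to 0.0067 for Cyp51, -0.067 to 0.053 for Fads1, -0.094 to 0.023 for Hmgcs1, -0.063 to 0.048 for Hsd17b7, -0.035 to 0.11 for Lss, -0.054 to 0.22 for Mvd, -0.13 to 0.065 for Nsdhl, -0.15 to 0.028 for Srebf1 and -0.022 to 0.23 for Tm7sf2. The cause of these differences was not tested.

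Over all genes, 48 passed an FDR under 0.25 in edgeR, but 1033 in DESeq2, 95 without scaling, 104 without a filter and 256 with the block. With control replicate 1 left out it was 1675, with SAP97-cKO replicate 1 left out 711, and with control replicate 2, or replicate 3 or 4 of SAP97-cKO, left out 0. The study's labels do not pair the mice. Correlations of libraries with the same number were -0.058, 0.195, 0.097 and 0.257. Control replicates 2, 3 and 4 each correlated best with the SAP97-cKO library of their own number. Control replicate 1 correlated best with SAP97-cKO replicate 4 (0.247), so not every sample matched its own number. With 4 mice a group, the 95% intervals of 31 of the 32 genes lie within a 1.5-fold difference, and those of 22 within a 1.3-fold difference.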
